A study of Mus musculus with 6 samples.

Results

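Macrophages without LXRα and LXRβ, the liver X receptors (LXRdKO), were compared with wild-type macrophages (WT) across all measured genes. The comparison used 4 of the 6 libraries of the series, chosen by their titles, 2 from LXRdKO and 2 from WT. The other 2 libraries came from macrophages lacking Ch25h, the gene of cholesterol 25-hydroxylase (Ch25hKO), and are given where a level in LXRdKO is set beside theirs. All cells were bone marrow-derived macrophages, which grow out of marrow under the growth factor M-CSF. In every group the strain was C57BL/6, the culture had reached day 7, and the cells had received LPS, a component of the bacterial outer membrane, at 100 ng/ml for 8 h. Both groups were therefore stimulated, and no value here gives the response to LPS itself. Which part of each receptor gene was deleted, the age and sex of the mice, and whether a group's libraries stem from different mice were not stated in the sample labels, so p-values measure only how far these libraries differ, a spread that may be technical.

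LXRα and LXRβ are nuclear receptors that bind DNA together with RXR and are activated by oxysterols, oxidised forms of cholesterol. When a macrophage takes up cholesterol, they are known to switch on genes of sterol export, lipoproteins and fatty acid synthesis, and genes for the uptake of dying cells. Without ligand they can hold the same genes down with corepressors, so loss of the receptor can raise or lower a target. Ligand-bound LXR is also known to dampen the transcription of inflammatory genes after LPS.

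Read totals were 45343311 and 42816660 counts in WT and 44576055 and 45872964 in LXRdKO. Expression is given in CPM, the counts scaled to library sizes that were adjusted by TMM. The ribosomal RNA precursor Rn45s took 1.27% to 1.295% of the counts in WT and 1.01% to 1.06% in LXRdKO. The libraries within each group were not copies of one another: chi-square divided by its degrees of freedom was 12.3 between the WT libraries and 4.24 between the LXRdKO libraries, where counting noise alone gives about 1. Unless another error is named, changes are log2 fold changes of LXRdKO against WT ± standard error with n = 2 libraries per group. Adjusted p-values are those of the quasi-likelihood test in edgeR, adjusted over 12923 genes by the Benjamini-Hochberg method, and a gene was called at an adjusted p under 0.05.

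Reads of both receptor genes were few in LXRdKO. Nr1h2, the gene of LXRβ (chromosome 7, 44549616 to 44553968 in the GRCm38.p6 annotation of RefSeq), gave 1292 and 1401 reads in the WT libraries and 35 and 35 in LXRdKO, which is 2.60% of the WT level. Nr1h3, the gene of LXRα (chromosome 2, 91184061 to 91202829), gave 710 and 756 reads in the WT libraries and 42 and 41 in LXRdKO, or 5.66% of the WT level. The counts cover each gene whole, so reads from outside a deleted stretch cannot be told apart from the rest, and these shares are not levels of intact receptor transcript. Both LXRdKO libraries match their label. Ch25h stood at 70.2 and 70.8 CPM in WT and 57.2 and 62.5 CPM in LXRdKO, and its fall of 0.24 ± 0.06 (edgeR adjusted p = 0.00566) was lost without LXRdKO replicate 1 (adjusted p = 0.129).

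Without the LXRs, 2116 of 12923 tested genes were higher (16.4%) and 1999 were lower (15.5%), so 31.8% of all genes were called. The changes were mostly small, with a median size of 0.37 on the log2 scale among called genes. At least 2-fold changes were fewer and lay mainly downward, with 98 genes higher (0.758%) and 374 lower (2.89%). Many of the latter were weakly expressed: 218 had a mean below 1 CPM, and only 55 had a mean of at least 5 CPM, against 32 of the 2-fold higher genes. The median over all tested genes was 0.00 on the log2 scale, and each gene group below is set against these shares. The share called in either direction grew with abundance. It was 14.5% of genes with a mean below 1 CPM, 35.7% at 5 to 50 CPM, 45.7% at 50 to 500 CPM and 52.1% above. The shares over all genes do not allow for this, so for groups of abundant genes they are a low background. Without LXRdKO replicate 1, 1292 genes were higher and 1198 lower, and without LXRdKO replicate 2 the counts were 1314 and 1265. The 2-fold higher genes numbered 148 without WT replicate 2.

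**Figure D1:**
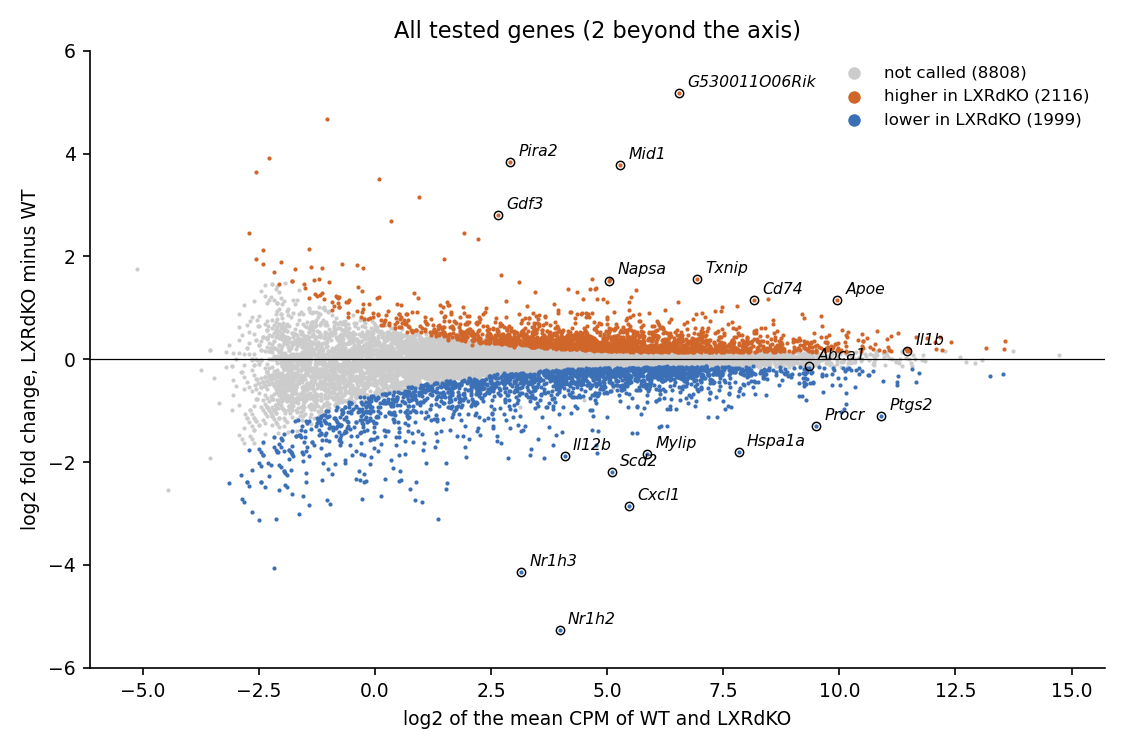
Each point is 1 of 12923 tested genes, with the log2 of its mean CPM over WT and LXRdKO on the x axis and its log2 fold change, LXRdKO minus WT, on the y axis. Called genes are orange (2116 higher) or blue (1999 lower), and 2 weakly expressed genes, Erdr1 and Klk1b22, lie beyond the axis; Nr1h2 and Nr1h3 are the lowest labelled points, at -5.26 and -4.14.

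The genes known as LXR targets did not move together. Of 25 tested of 30 listed, 13 fell (52.0%), 6 rose (24.0%) and 6 did not pass the test, with a median of -0.22. Lowest were the fatty acid desaturase genes and Mylip, and highest were the apolipoprotein genes Apoc2 and Apoe. Counts of the targets held when any 1 library was left out, at 11 to 13 lower and 6 higher.

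Among the genes of sterol export, Abcg1, a cholesterol exporter to HDL particles, stood at 269 and 237 CPM in WT and 131 and 137 CPM in LXRdKO. The LXRdKO libraries lay at about 53.1% of the WT level with no overlap (-0.91 ± 0.06, edgeR adjusted p = 5.26e-09). Abca1, which loads cholesterol on apolipoprotein A-I, stood at 674 and 694 CPM in WT and 632 and 619 CPM in LXRdKO. That difference of -0.13 ± 0.05 did not pass the test (edgeR adjusted p = 0.0673), although it passed with DESeq2 and in 3 other alternatives, so the exporter most often used as an LXR readout was 91.4% of WT. Arl4c, a small GTPase linked to vesicle traffic, fell from 22.3 and 18.0 to 13.1 and 14.1 CPM (-0.57 ± 0.09). Mylip, a ubiquitin ligase known to mark lipoprotein receptors for degradation, fell 3.59-fold, from 94.2 and 86.7 to 26.3 and 24.1 CPM. Lpl, the lipoprotein lipase gene, fell by 0.37 ± 0.06, and all of these genes kept separate WT and LXRdKO values.

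Lipoprotein components moved the other way. Apoe encodes an apolipoprotein that takes up cholesterol from the macrophage. Its level was 647 and 592 CPM in WT and 1364 and 1378 CPM in LXRdKO (1.15 ± 0.06, edgeR adjusted p = 2.06e-10). Apoc2, the activator of lipoprotein lipase that neighbours Apoe on chromosome 7, rose 2.94-fold, from 16.7 and 17.0 to 48.1 and 51.2 CPM. Pltp, which transfers phospholipids between lipoproteins, rose by 0.76 ± 0.05, from 289 and 279 to 476 and 486 CPM. Apoc1 stayed below 1 CPM in all 4 libraries and did not pass.

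Of the 7 tested LXR targets of fatty acid and phospholipid synthesis 4 fell and 3 did not pass. Scd2, a stearoyl-CoA desaturase that makes monounsaturated fatty acids, stood at 57.0 and 55.9 CPM in WT and 13.6 and 11.0 CPM in LXRdKO (-2.19 ± 0.08, edgeR adjusted p = 4.32e-12). Its paralog Scd1 fell from 6.30 and 5.92 to 1.66 and 1.63 CPM (-1.89 ± 0.13). Values of both desaturases were lower in each LXRdKO library than in either WT library. Acsl3, an acyl-CoA synthetase of lipid droplets, fell from 5.96 and 4.996 to 3.10 and 3.14 CPM (-0.81 ± 0.12). The fall of Lpcat3, which puts polyunsaturated chains on phospholipids, was small (-0.25 ± 0.06) and was lost without LXRdKO replicate 2. The best known lipogenic targets did not pass: Srebf1, the gene of SREBP1, stood at 16.3 and 18.9 CPM in WT and 18.7 and 19.1 CPM in LXRdKO (0.11 ± 0.08), and the fatty acid synthase gene Fasn at 4.82 and 4.97 CPM in WT and 4.76 and 4.43 CPM in LXRdKO (-0.09 ± 0.11). In the wider list of 17 fatty acid synthesis and desaturation genes 4 rose and 4 fell (23.5% each way), among the former Acsl1, an acyl-CoA synthetase gene (0.24 ± 0.05), and the elongase gene Elovl1 (0.34 ± 0.06). Without either LXRdKO library 2 rose and 2 fell, and the rises also came to 2 without Ch25hKO replicate 1 or WT replicate 2.

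Targets with roles in clearance and immunity also split. Mertk, a receptor for dying cells, rose from 48.6 and 48.8 to 72.7 and 79.6 CPM (0.65 ± 0.06, edgeR adjusted p = 1.95e-07). Tgm2, a transglutaminase that aids engulfment, and Il18bp, which binds and blocks interleukin-18, rose by 0.25 ± 0.05 and 0.38 ± 0.06. Cd5l, a secreted survival factor of macrophages, fell from 9.72 and 8.52 to 3.21 and 3.26 CPM, and the chemokine receptor gene Ccr7 from 9.39 and 10.3 to 4.49 and 4.16 CPM. Arg2, the mitochondrial arginase, fell by 0.53 ± 0.06 and the NAD-consuming enzyme gene Cd38 by 0.27 ± 0.05. The fall of Irf8, 0.22 ± 0.06, did not hold without LXRdKO replicate 1, LXRdKO replicate 2 or WT replicate 1.

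**Figure D2:**
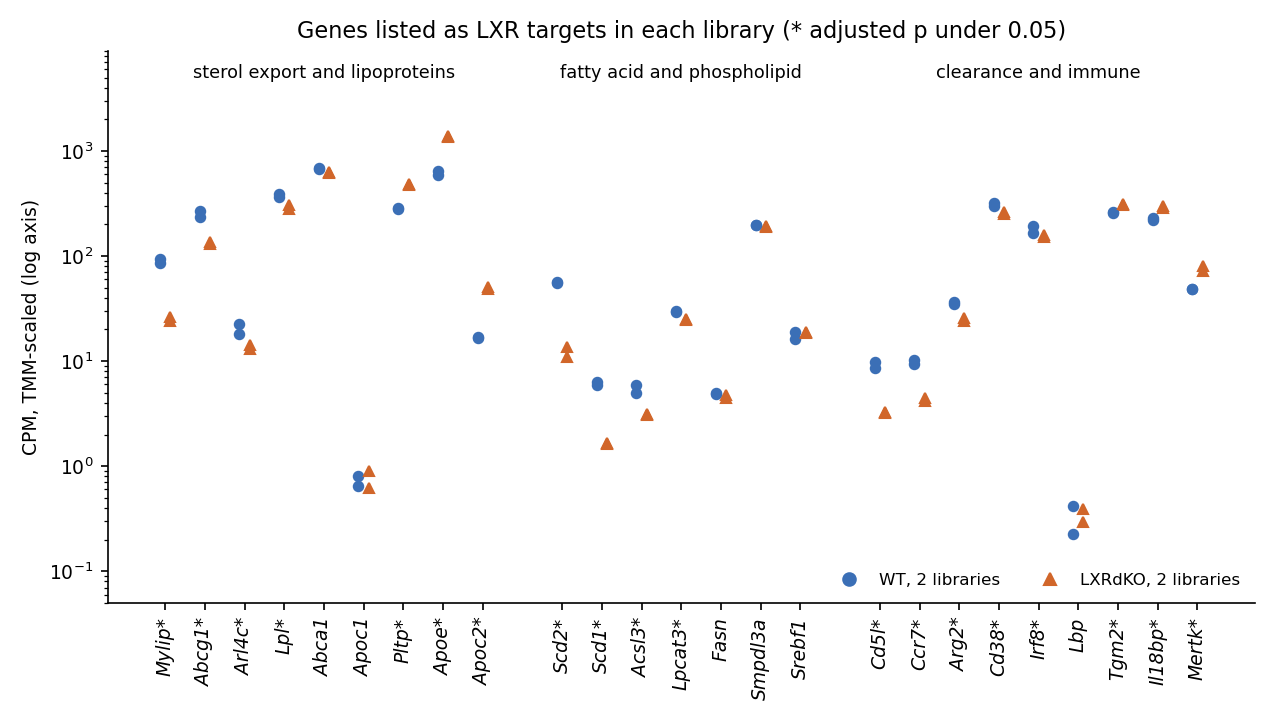
CPM on a log axis of the 25 tested LXR targets in each library, with WT as circles and LXRdKO as triangles, ordered by log2 fold change within 3 roles; an asterisk marks an adjusted p under 0.05. Mylip, Abcg1, Scd2 and Scd1 lie lower in both LXRdKO libraries, Pltp, Apoe and Apoc2 lie higher, and Abca1, Fasn and Srebf1 nearly coincide with WT.

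LPS-induced genes that are reported as repressed by LXR agonists were mostly lower, not higher, when the receptors were missing. Of 21 tested genes of this list 16 fell (76.2%, against 15.5% of all genes), 3 rose (14.3%) and 2 did not pass, with a median of -0.72. The list holds chemokines, cytokines and inducible enzymes, and 6 of the falls were at least 2-fold. The count of falls was 15 to 17 when any 1 library was left out.

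These genes are known to be driven by NF-κB, which binds short motifs near their start sites. Windows of the 250 bases before the annotated start were available for 14 of the 21 genes, and 3 of these held a κB motif, GGGA and TTTCC with any 1 base between them, on either strand (21.4%), against 46 of 9181 tested genes with a window (0.501%). A match is a description of the letters and says nothing of binding in these cells. The windows of the 3 genes, Il6, Cxcl1 and Cxcl2, are printed because they hold the motif; all 3 genes fell and lie on chromosome 5. Sequences are from RefSeq (GRCm38.p6, which is mm10), read 5′ to 3′ on the plus strand, from chr5:30012864-30013113, chr5:90890995-90891244 and chr5:90903649-90903898, and capitals mark the motif.
Il6: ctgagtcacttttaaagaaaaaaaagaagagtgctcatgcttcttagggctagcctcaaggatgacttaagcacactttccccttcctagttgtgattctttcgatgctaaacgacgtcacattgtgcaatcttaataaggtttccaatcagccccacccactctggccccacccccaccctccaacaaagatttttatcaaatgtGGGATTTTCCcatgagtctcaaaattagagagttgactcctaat
Cxcl1: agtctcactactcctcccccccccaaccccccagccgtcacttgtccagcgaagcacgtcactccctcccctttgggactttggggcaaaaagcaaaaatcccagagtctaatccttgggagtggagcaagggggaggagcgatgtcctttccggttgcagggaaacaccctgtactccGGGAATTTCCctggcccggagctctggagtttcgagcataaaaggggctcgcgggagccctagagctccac
Cxcl2: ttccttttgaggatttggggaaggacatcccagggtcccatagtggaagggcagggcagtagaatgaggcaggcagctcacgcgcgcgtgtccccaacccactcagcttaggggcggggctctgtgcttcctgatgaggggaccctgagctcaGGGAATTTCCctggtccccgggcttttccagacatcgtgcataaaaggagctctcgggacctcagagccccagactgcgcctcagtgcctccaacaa
The motif begins 44 bases before the start in Il6, 71 in Cxcl1 and 97 in Cxcl2. Cxcl1 and Cxcl2, close relatives that lie near each other, share the letters GGGAATTTCC, and Il6 has GGGATTTTCC. The LXR motif DR4, a spaced repeat of AGGTCA, was also searched in such windows, with up to 2 mismatches. It was found in 0 of the 14 genes with a window. Among LXR targets 1 of 15 held it (6.67%), against 210 of 9181 tested genes (2.29%).

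The neutrophil attractant gene Cxcl1 showed the steepest fall of the list, at 80.2 and 76.5 CPM in WT and 10.1 and 11.6 CPM in LXRdKO. WT libraries were 7.21-fold above LXRdKO (-2.85 ± 0.07, edgeR adjusted p = 6.69e-15). Its close relative Cxcl2 fell less, from 752 and 814 to 419 and 490.0 CPM (-0.78 ± 0.07). Ccl2 and Ccl7, which attract monocytes, fell by 1.03 ± 0.07 and 0.47 ± 0.07, with Ccl2 at 1419 and 1397 CPM in WT and 671 and 708 CPM in LXRdKO. Ccl3 and Ccl4, which attract monocytes and T cells, fell by 0.65 ± 0.07 and 0.54 ± 0.06.

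Il12b, the p40 subunit shared by interleukin-12 and interleukin-23, stood at 27.8 and 25.5 CPM in WT and 7.43 and 7.04 CPM in LXRdKO (-1.88 ± 0.09, edgeR adjusted p = 3.83e-11). Csf3, the granulocyte colony-stimulating factor gene, fell from 15.9 and 15.6 to 3.71 and 4.999 CPM (-1.85 ± 0.11). Il6 fell from 123 and 136 to 72.6 and 81.7 CPM (-0.75 ± 0.06), and Il1a, the gene of interleukin-1α, by 0.72 ± 0.06. None of these genes had overlapping values between the groups.

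Ptgs2, the inducible cyclooxygenase of prostaglandin synthesis, was among the most abundant transcripts of the list at 2604 and 2608 CPM in WT and 1139 and 1284 CPM in LXRdKO (-1.10 ± 0.06, edgeR adjusted p = 6.12e-10). Nos2, the inducible nitric oxide synthase, fell from 1473 and 1445 to 703 and 781 CPM (-0.98 ± 0.06). F3, the coagulation starter tissue factor, fell by 1.06 ± 0.13, the endothelin gene Edn1 by 0.85 ± 0.07 and the osteopontin gene Spp1 by 0.45 ± 0.07. Mmp9, a gelatinase at about 1 CPM, fell by 0.68 ± 0.22, a call lost without LXRdKO replicate 1, LXRdKO replicate 2 or WT replicate 1 and with DESeq2.

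The members that did not fall were the T cell attractant genes Cxcl10 and Ccl5, Il1b, Tnf and Mmp13. Cxcl10 rose from 3254 and 3201 to 4018 and 4576 CPM (0.41 ± 0.07) and Ccl5 from 4790.0 and 4759.8 to 6029 and 5986 CPM (0.33 ± 0.06). Il1b, the gene of interleukin-1β, stood at 2603 and 2744 CPM in WT and 2942 and 3014 CPM in LXRdKO, and its rise of 0.16 ± 0.06 (edgeR adjusted p = 0.0486) was lost in 9 of 14 alternatives, including without either LXRdKO library. Tnf stood at 319 and 336 CPM in WT and 312 and 309 CPM in LXRdKO (-0.08 ± 0.05, edgeR adjusted p = 0.286), and the collagenase gene Mmp13 was at -0.08 ± 0.06.

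**Figure D3:**
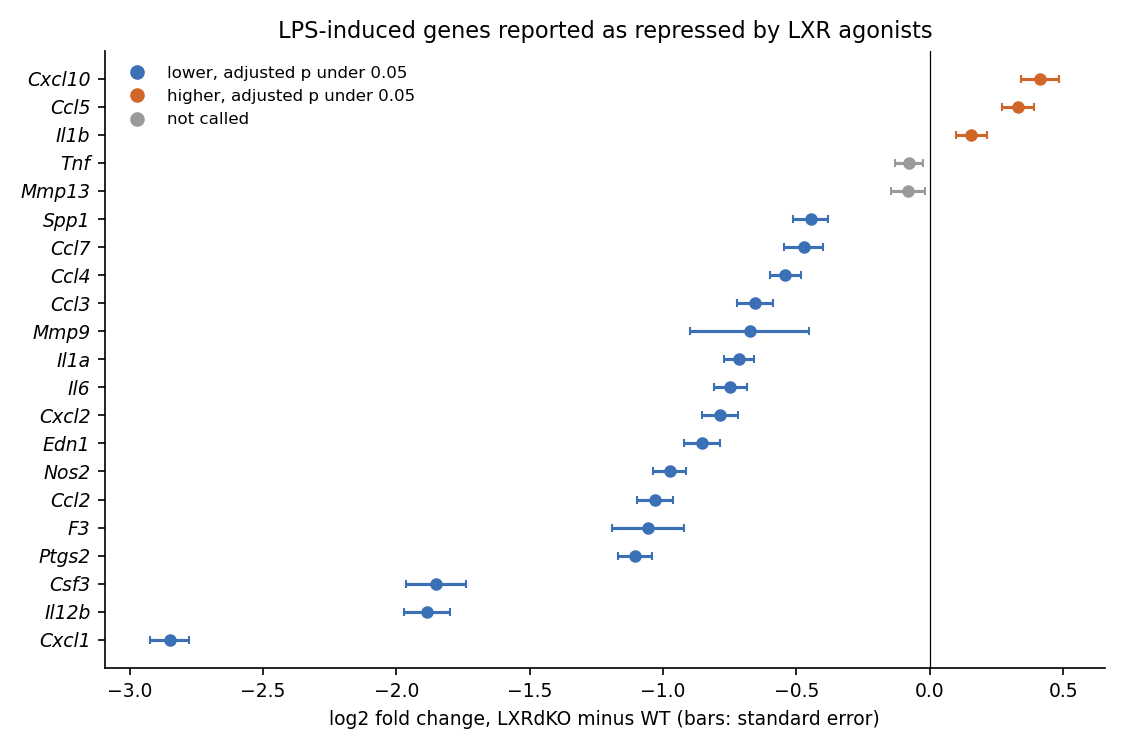
Log2 fold change, LXRdKO minus WT, with standard error bars for the 21 tested LPS-induced genes reported as repressed by LXR agonists. Blue points fell (16 genes), orange points rose (3) and grey points did not pass (Tnf and Mmp13); Cxcl1 lies farthest left at -2.85.

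The wider cytokine list showed the same direction in its counts and shares Il6, Il12b, Csf3 and Tnf with the list above. Of 27 tested cytokines and colony-stimulating factors 14 fell (51.9%), 4 rose (14.8%) and 9 did not pass, with a median of -0.30. The anti-inflammatory cytokine gene Il10 fell along with pro-inflammatory ones, from 104 and 98.8 to 38.0 and 44.0 CPM (-1.31 ± 0.07), and its family member Il19 fell by 1.40 ± 0.12. The gp130 cytokine gene Osm fell from 24.7 and 22.7 to 8.32 and 9.52 CPM (-1.41 ± 0.09), and Inhba, the activin A subunit, from 77.8 and 67.5 to 25.1 and 28.8 CPM (-1.43 ± 0.08). Il15, which sustains NK and memory T cells, and Ebi3, a subunit of interleukin-27, rose by 0.44 and 0.34.

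Chemokines moved both ways. Of 23 tested 8 fell (34.8%), 7 rose (30.4%) and 8 did not pass, with a median of -0.05. Besides the 6 falls named above, Ccl22 and Ccl17, both ligands of CCR4, fell by 1.43 and 1.26, Ccl22 from 66.8 and 68.9 to 26.0 and 24.4 CPM. The call of Ccl17 was lost without LXRdKO replicate 2 and with DESeq2. The interferon-inducible ligands of CXCR3 rose together: Cxcl11 from 180.1 and 183 to 266 and 294 CPM (0.62 ± 0.06) and Cxcl9 from 725 and 744 to 978 and 1067 CPM (0.48 ± 0.06), beside Cxcl10. In bulk RNA, fewer cells making a transcript and less transcript per cell cannot be told apart.

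Within the interleukin-1 family, Il1f9 and Il1f6, which encode skin and mucosal members of the family, fell by 1.55 ± 0.08 and 1.06 ± 0.12. Of 22 tested family and inflammasome genes 7 fell (31.8%) and 10 rose (45.5%), with a median of 0.04. Casp1, the protease that cleaves interleukin-1β, fell from 843 and 755 to 577 and 603 CPM (-0.44 ± 0.06), while Pycard, the inflammasome adaptor ASC, rose from 34.0 and 30.8 to 56.2 and 57.7 CPM (0.81 ± 0.06). The number that rose depended on the libraries used, at 6 without LXRdKO replicate 1 or Ch25hKO replicate 1 and 5 without LXRdKO replicate 2.

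Most feedback inhibitors of the LPS response were lower. Of 24 MAP kinase and cytokine feedback inhibitors 14 fell (58.3%), 3 rose (12.5%) and 7 did not pass, with a median of -0.33, and only 1 rise was left without Ch25hKO replicate 1 or LXRdKO replicate 1. Zfp36, which destabilises cytokine messages, stood at 1530.2 and 1384 CPM in WT and 752 and 833 CPM in LXRdKO (-0.88 ± 0.06, edgeR adjusted p = 1.30e-08). The MAP kinase phosphatase genes Dusp1, Dusp4 and Dusp10 fell by 0.50 ± 0.07, 0.70 ± 0.08 and 1.29 ± 0.12. Among 20 NF-κB subunits and inhibitors 5 fell (25.0%) and 4 rose (20%), with 3 lower and 2 higher without LXRdKO replicate 2. The largest fall there was that of Nfkbiz, a nuclear IκB protein needed for Il6 and Il12b induction, from 238 and 216 to 104 and 106 CPM (-1.12 ± 0.06). Tnfaip3, the ubiquitin-editing brake on NF-κB also called A20, fell by 0.51 ± 0.07, and Nfkbie rose by 0.31 ± 0.05.

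Receptors of the innate response were mostly higher. Of 25 genes of Toll-like receptors and LPS signalling 16 rose (64.0%, against 16.4% of all genes), 0 fell and 9 did not pass, with a median of 0.27. By edgeR 0 were also lower at an unadjusted p under 0.05, DESeq2 and limma-voom called 0 and 0 lower, and 1 was lower without WT replicate 2. Tlr4, the LPS receptor, stood at 59.1 and 62.1 CPM in WT and 102 and 107 CPM in LXRdKO (0.79 ± 0.05, edgeR adjusted p = 5.07e-09). Ly96, its LPS-binding partner MD-2, was at 17.3 and 19.5 CPM in WT and 29.2 and 28.9 CPM in LXRdKO (0.66 ± 0.07), and Tlr1, Tlr9 and Tlr13, which sense lipopeptides, CpG DNA and bacterial ribosomal RNA, rose by 0.62 ± 0.05, 0.60 ± 0.06 and 0.55 ± 0.05. Tlr2 and the co-receptor gene Cd14 did not pass (-0.03 and 0.11).

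Chemoattractant receptors rose as well. Of 20 tested 13 rose (65.0%), 2 fell (10.0%) and 5 did not pass, with a median of 0.43, and 13 rose without any 1 library. P2ry14, a receptor for UDP-sugars, rose from 36.2 and 36.5 to 66.9 and 67.5 CPM (0.89 ± 0.05), and Ccr1, a receptor of Ccl3 and Ccl5, from 14 and 14.8 to 25.9 and 26.9 CPM (0.88 ± 0.07). The complement peptide receptor genes C5ar1 and C3ar1 rose by 0.61 ± 0.05 and 0.52 ± 0.06, and the formyl peptide receptor gene Fpr1 by 0.51 ± 0.06. Ccr2, the receptor of Ccl2, went the other way, from 13.4 and 15.4 to 8.04 and 6.99 CPM (-0.94 ± 0.10). Of the ligands named here, Ccl2 fell like Ccr2, while Ccl5 rose and Ccl3 fell beside the rise of Ccr1.

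Antigen presentation by MHC class II was higher at the core genes. Of 19 tested 9 rose (47.4%), 2 fell (10.5%, 4 without WT replicate 2) and 8 did not pass, with a median of 0.43. Cd74, the invariant chain, stood at 165 and 190.4 CPM in WT and 381 and 409 CPM in LXRdKO (1.16 ± 0.06, edgeR adjusted p = 3.69e-10). The class II chain genes H2-Ab1, H2-Aa and H2-Eb1 rose by 1.02 ± 0.05, 0.89 ± 0.05 and 0.82 ± 0.06, and H2-DMa and H2-DMb1, which load peptides, by 0.57 ± 0.09 and 0.70 ± 0.09. Ciita, the master transactivator of these genes, did not pass (0.07), nor did the costimulatory genes Cd80 and Cd86 (-0.04 and -0.09).

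Complement and clearance genes rose in the majority. Of 31 tested 17 rose (54.8%) and 6 fell (19.4%), with a median of 0.18, and 2 fell without LXRdKO replicate 1 and 3 without WT replicate 1. The 3 chains of C1q, which opsonises dying cells, rose together, with C1qb from 885 and 839 to 1282 and 1280.5 CPM (0.57 ± 0.06) and C1qa and C1qc by 0.49 ± 0.06 and 0.68 ± 0.06. Fcgr4, an activating antibody receptor, stood at 441 and 437 CPM in WT and 755 and 782 CPM in LXRdKO (0.81 ± 0.05). Gas6, the ligand that bridges dying cells to Mertk, rose by 0.53, while Pros1, the other such ligand, fell by 0.30, a call lost without LXRdKO replicate 1 or WT replicate 1.

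General macrophage markers moved with these receptors. Of 10 tested macrophage markers 7 rose (70.0%, against 16.4% of all genes), with a median of 0.21. The count of falls was 0, also by DESeq2, by limma-voom and at an unadjusted p under 0.05. Markers such as Lyz2 and Cd68 had means above 500 CPM, where 114 of 349 tested genes rose. Fewer markers rose without either LXRdKO library, and the median ran from 0.16 to 0.28 when any 1 library was left out. Csf1r, the M-CSF receptor gene, was at 871 and 853 CPM in WT and 1053 and 1064 CPM in LXRdKO (0.30 ± 0.05), and the summed level of the 10 markers was 17127 to 18584 CPM in WT and 20443 to 20626 CPM in LXRdKO. Their part in the rise of the receptors was not tested. Neutrophil markers summed to 52.8 to 53.7 CPM in WT and 39.2 to 39.5 in LXRdKO. Of the 6 tested, 4 were lower (66.7%, against 15.5% of all genes) and 1 was higher. Fewer were lower without either LXRdKO library, and only 1 was lower with DESeq2. Mpo, counted among the lower markers, had 12 and 10 reads in WT and 3 and 0 in LXRdKO. It passed the count filter only through WT. The defining neutrophil genes Elane and Prtn3 had at most 1 count in each of the 4 libraries, and S100a8 fell by 1.11 ± 0.06. Dendritic cell markers summed to 33.2 to 33.4 CPM in WT and 25.9 to 28.6 in LXRdKO, with 2 of 10 lower, Ccr7 and Dpp4. B cell markers reached at most 4.44 CPM in sum, and T and NK cell markers at most 5.31 CPM, with Cd3g at 0 counts in the 4 libraries. Stromal markers summed to 28.2 to 29.1 CPM in WT and 26.8 to 27.2 in LXRdKO, and the osteoclast markers to 228 to 249 and 222 to 224 CPM.

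**Figure D4:**
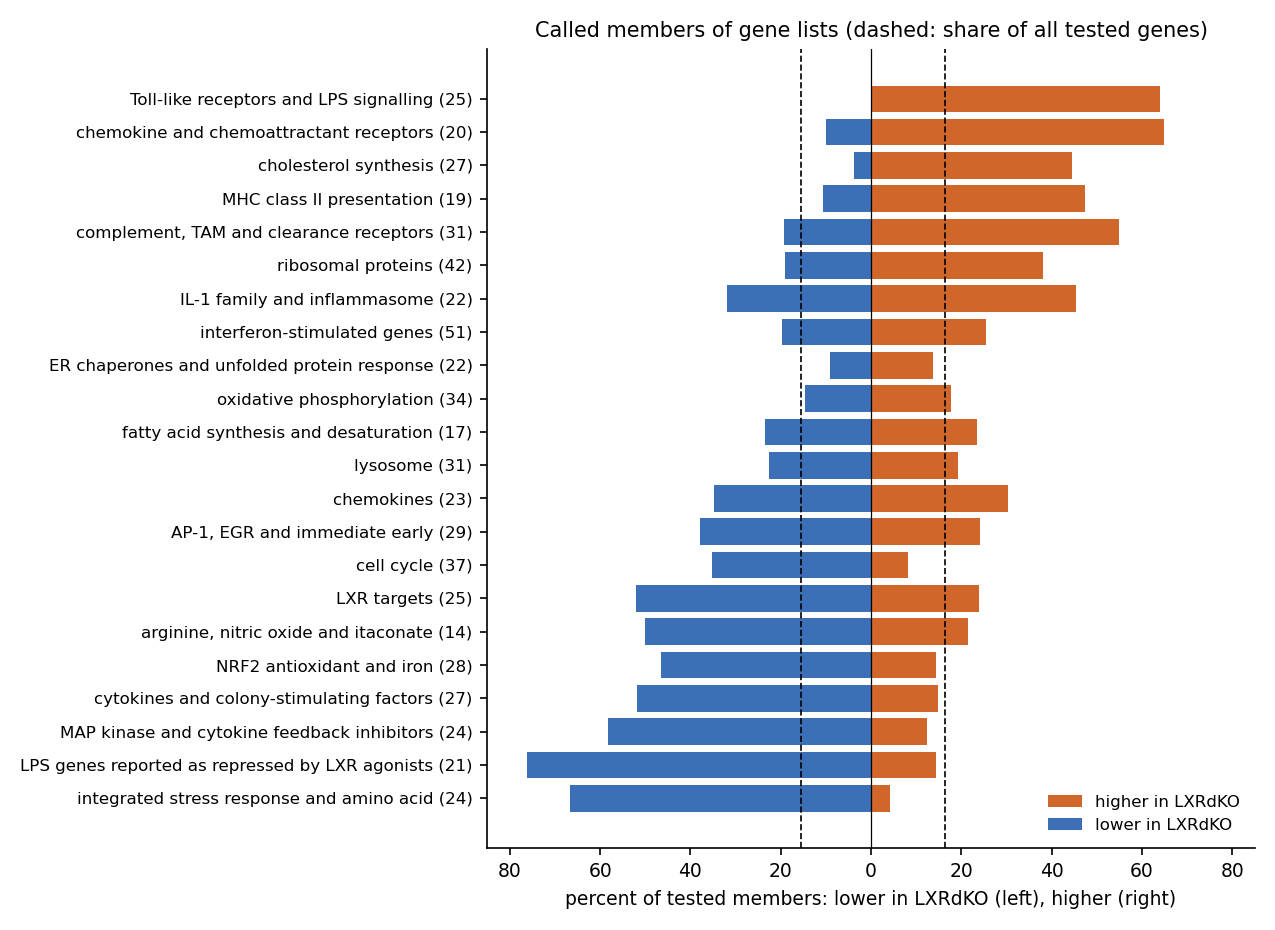
Percent of the tested members of 22 gene lists that were called lower (left, blue) or higher (right, orange) in LXRdKO than in WT, with the number tested in parentheses. Dashed lines mark the shares among all tested genes, 15.5% lower and 16.4% higher; Toll-like receptor genes reach 64.0% higher, and LPS genes reported as repressed by LXR agonists 76.2% lower.

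Stress-response genes were lower across several programs. Of 24 genes of the integrated stress response, which ATF4 drives when amino acids run short or proteins misfold, 16 fell (66.7%), 1 rose and 7 did not pass, with a median of -0.37; 2 rose without WT replicate 1 and 0 among genes with at least 5 CPM. Asns, asparagine synthetase, stood at 14.4 and 14.5 CPM in WT and 7.88 and 8.21 CPM in LXRdKO (-0.84 ± 0.09, edgeR adjusted p = 7.14e-07). Gdf15, a stress-induced secreted factor, fell from 12.7 and 13.8 to 4.83 and 6.02 CPM (-1.29 ± 0.11), the mTORC1 inhibitor gene Ddit4 by 1.18 ± 0.12 and the pseudokinase gene Trib3 by 1.70 ± 0.19. Atf4 itself fell by 0.30 ± 0.05. The single rise was that of Vldlr, a lipoprotein receptor gene, from 0.248 and 0.414 to 1.299 and 1.09 CPM. Chaperones of the ER did not share the fall, with 2 of 22 lower (9.09%) and 3 higher (13.6%). Those counts varied with the libraries, from 1 lower without LXRdKO replicate 1, LXRdKO replicate 2 or WT replicate 1 to 7 lower without WT replicate 2, and 7 were higher without WT replicate 1.

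Antioxidant and iron genes had 13 of 28 members lower (46.4%) and 4 higher (14.3%), with a median of -0.23; the rises came to 2 without WT replicate 1 or either Ch25hKO library and to 1 without either LXRdKO library. Hmox1, which breaks down heme, stood at 2728 and 2908 CPM in WT and 1975 and 2000.0 CPM in LXRdKO (-0.50 ± 0.06). The glutathione synthesis gene Gclc fell from 85.8 and 89.6 to 51.0 and 52.3 CPM (-0.76 ± 0.06), and the cystine importer gene Slc7a11 by 0.69 ± 0.06. Steap4, a metalloreductase, fell from 24.0 and 19.3 to 6.93 and 6.63 CPM (-1.67 ± 0.10). The heat shock genes Hspa1a and Hspa1b, near-identical copies whose reads may be shared, fell by 1.80 ± 0.10 and 1.29 ± 0.10, with Hspa1a at 375 and 332 CPM in WT and 108 and 95.4 CPM in LXRdKO.

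Arginine is the substrate shared by nitric oxide synthase and the arginases. Of 14 genes around arginine, polyamines and itaconate 7 fell (50%) and 3 rose (21.4%), the latter 1 without any 1 library other than WT replicate 2. Nos2 and Arg2 fell while Arg1, the cytosolic arginase, rose from 28.5 and 34.1 to 57.7 and 51.9 CPM (0.81 ± 0.08). The polyamine genes Odc1 and Azin1, which encode ornithine decarboxylase and its activator, fell by 0.90 ± 0.10 and 0.94 ± 0.06.

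Sterol synthesis moved little beside these groups. Of 27 genes of cholesterol synthesis and SREBP2 targets 12 rose (44.4%, 5 without LXRdKO replicate 2) and 1 fell (0 without LXRdKO replicate 1, 3 without WT replicate 2), with a median of 0.13. Srebf2, the gene of SREBP2, rose from 16.0 and 14.3 to 23.9 and 25.2 CPM (0.70 ± 0.07), and the early enzyme gene Hmgcs1 by 0.26 ± 0.07, a call lost without LXRdKO replicate 2 or WT replicate 2. Among oxysterol genes, Cyp27a1, which makes 27-hydroxycholesterol, rose from 2.97 and 2.83 to 5.04 and 5.32 CPM (0.83 ± 0.14). Of 20 genes of lipid uptake and cholesterol transport 7 fell (35.0%, fewer without LXRdKO replicate 1) and 4 rose (20%). The rises were fewer without any 1 Ch25hKO or LXRdKO library. They came to 2 with RLE scaling, with the replicate block or with only the WT and LXRdKO libraries, and to 0 of 17 genes with at least 5 CPM in 2 libraries. Of 17 lipid droplet and triglyceride genes 4 fell (23.5%) and 3 rose (17.6%). Falls in these lists included the fatty acid transporter gene Cd36, from 208 and 202 to 135 and 136 CPM (-0.60 ± 0.05), the sterol transporter gene Gramd1a (-0.57 ± 0.05) and the triglyceride enzyme gene Dgat2 (-0.69 ± 0.09). Lpin2, a phosphatidate phosphatase gene, rose by 0.37 ± 0.05.

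Interferon-stimulated genes stayed near the background. Of 51 tested 13 rose (25.5%) and 10 fell (19.6%), with a median of 0.06. The rises came to 8 without Ch25hKO replicate 1, LXRdKO replicate 1 or WT replicate 2 and to 6 without LXRdKO replicate 2, and the falls to 3 without LXRdKO replicate 1 and 5 without WT replicate 1. Ifitm3, which blocks viral entry, rose from 2795 and 2709 to 3692 and 3694 CPM (0.42 ± 0.06), and Oasl1, an inhibitor of Irf7 translation, fell from 804 and 799 to 555 and 611 CPM (-0.46 ± 0.06). Rsad2, the antiviral enzyme viperin, stood at 11849 and 9698 CPM in WT and 8222 and 9037 CPM in LXRdKO, with WT replicate 1 the highest, and its fall was lost without LXRdKO replicate 1, without WT replicate 1 and with DESeq2. The core genes Isg15 and Mx1 did not pass (0.10 and 0.09).

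Several weakly expressed genes of mitosis were lower in LXRdKO. Of 37 cell cycle genes 13 fell (35.1%) and 3 rose (8.11%), with a median of -0.19. The falls came to 8 without LXRdKO replicate 1 and to 2 among genes with at least 5 CPM in 2 libraries, and the rises to 1 without LXRdKO replicate 2 and 6 without WT replicate 1. Cyclin B2, encoded by Ccnb2, stood at 5.18 and 4.70 CPM in WT and 0.820 and 0.882 CPM in LXRdKO (-2.53 ± 0.17), and the topoisomerase gene Top2a at 9.61 and 9.05 CPM in WT and 3.40 and 2.83 CPM in LXRdKO (-1.58 ± 0.12). Mki67, a standard proliferation marker, was at 113 and 127 CPM in WT and 112 and 110.4 CPM in LXRdKO and did not pass (-0.11 ± 0.07, edgeR adjusted p = 0.204).

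The largest increases with a mean of at least 5 CPM, leaving out unnamed models, were those of Pira2 and Mid1. Mid1, a microtubule-associated ubiquitin ligase on the X chromosome, stood at 5.38 and 5.13 CPM in WT and 68.5 and 76.0 CPM in LXRdKO (3.78 ± 0.08, edgeR adjusted p = 3.66e-16). Pira2, a paired immunoglobulin-like receptor, rose from 0.990 and 0.967 to 14.4 and 13.6 CPM, but its reads may be shared with near-identical copies. Gdf3, a growth factor of the TGF-β family, rose from 1.46 and 1.68 to 11.6 and 10.3 CPM (2.80 ± 0.13), and Txnip, the thioredoxin inhibitor that lowers glucose uptake, from 64.8 and 59.5 to 188 and 177 CPM (1.56 ± 0.06). Further increases by that rule were Calhm2, Pilrb2, Clec4a2, Fxyd2, Tifab, Gpr141 and Art2a-ps, between 1.31 and 1.64. Other genes that rose, picked after their values were seen, were the lectin gene Clec4a1 from 140.1 and 150.3 to 295 and 301 CPM, the inhibitory receptor genes Pilra and Lair1 by 1.12 ± 0.06 and 0.97 ± 0.07, Cd300lb by 1.18 ± 0.07, and Ms4a7 from 208 and 222 to 475 and 499 CPM. The unnamed model G530011O06Rik had the largest rise of any gene above 5 CPM, from 4.93 and 5.09 to 174 and 187 CPM (5.17 ± 0.07). It lies inside Mid1 on the X chromosome (169975043 to 169978917 within 169685199 to 169990798), so their reads may be shared and the rises are not separate results. In Ch25hKO, Mid1 was at 12.1 and 12.8 CPM and G530011O06Rik at 12.3 and 13.1 CPM, also above WT. Erdr1 starts close by, at 170010526. Erdr1, a weakly expressed gene with near-identical copies, was at 0.0675 and 0.0230 CPM in WT, 8.11 and 8.03 CPM in LXRdKO and 9.29 and 7.96 CPM in Ch25hKO, so both knockouts lay above WT.

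Among the largest decreases after the receptors, Cxcl1 and Scd2 were Spred3, a Ras-MAP kinase inhibitor (-1.93), Plcxd2 (-1.92), the soluble pattern receptor gene Ptx3 (-1.83), Ccnf, which encodes cyclin F (-1.74), Serpina3g (-1.67) and the inhibitory receptor gene Btla (-1.62). Ptx3 stood at 47.6 and 38.3 CPM in WT and 11.1 and 13.1 CPM in LXRdKO. Procr, the receptor of protein C, was an abundant transcript that fell, from 1076 and 988 to 417 and 421 CPM (-1.30 ± 0.06). By amount, the largest gain was that of B2m, the light chain of MHC class I, from 10553 and 10875 to 13674 and 13668 CPM (0.35 ± 0.06), followed, among calls that held in every alternative, by the protease gene Ctss and Ccl5. Rn45s lost most, and its fall of 0.28 ± 0.06 was lost without LXRdKO replicate 1.

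Changes of at least 2-fold made up a larger share of the genes next to Nr1h2 than of all genes. Within 2 Mb of its start, 13 of 86 tested genes other than Nr1h2 were called at 2-fold or more (15.1%), against 3.65% of all tested genes. The share was 12.6% of 127 genes within 10 Mb, 8.00% of 175 genes at 10 to 20 Mb and 3.92% of 664 genes farther out on chromosome 7. The share called at any size was not raised, at 32.6% within 2 Mb against 31.8% overall. Napsa, an aspartic protease gene that starts 0.023 Mb from Nr1h2, stood at 16.6 and 17.2 CPM in WT and 47.8 and 49.7 CPM in LXRdKO (1.53 ± 0.06, edgeR adjusted p = 6.76e-12). Fcgrt, the neonatal antibody receptor, 0.54 Mb away, rose from 14.8 and 12.8 to 34.5 and 37.0 CPM, and Siglece, an inhibitory sialic acid receptor gene 0.90 Mb away, from 17.2 and 20.1 to 44.3 and 39.5 CPM. Klk1b11, a kallikrein with near-identical copies 0.55 Mb away, rose from 1.69 and 1.40 to 8.41 and 7.19 CPM. Most of the others had means under 1 CPM. Klk1b22, with 0 and 1 reads in WT and 44 and 41 in LXRdKO, passed the count filter only through LXRdKO. The same holds for Klk1b1, with 5 and 7 reads in WT and 28 and 26 in LXRdKO. Calls of Car11, Cpt1c and Iglon5 were lost with DESeq2. The 15.1% within 2 Mb includes all of these genes.

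Around Nr1h3 on chromosome 2, 1 of 39 tested genes within 2 Mb was called at 2-fold or more (2.56%), namely Pacsin3 at under 1 CPM (-2.38). The share was 5.88% of 51 genes within 5 Mb, 0 of 18 genes at 5 to 10 Mb and 8.75% of 80 genes at 10 to 20 Mb, which included Depdc7 (from 4.86 and 4.12 to 12.6 and 12.8 CPM) and the complement regulator gene Cd59a (from 5.90 and 6.29 to 1.96 and 2.22 CPM). Madd, whose start lies 0.0467 Mb from that of Nr1h3, stood at 84.1 and 85 CPM in WT and 49.5 and 47.1 CPM in LXRdKO (-0.81 ± 0.05). Its annotated end, 91184006, lies directly before the lower coordinate of Nr1h3 given above, so the genes adjoin. What the altered Nr1h3 locus adds to this fall was not tested. Why the shares near both loci differ was not tested.

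**Figure D5:**
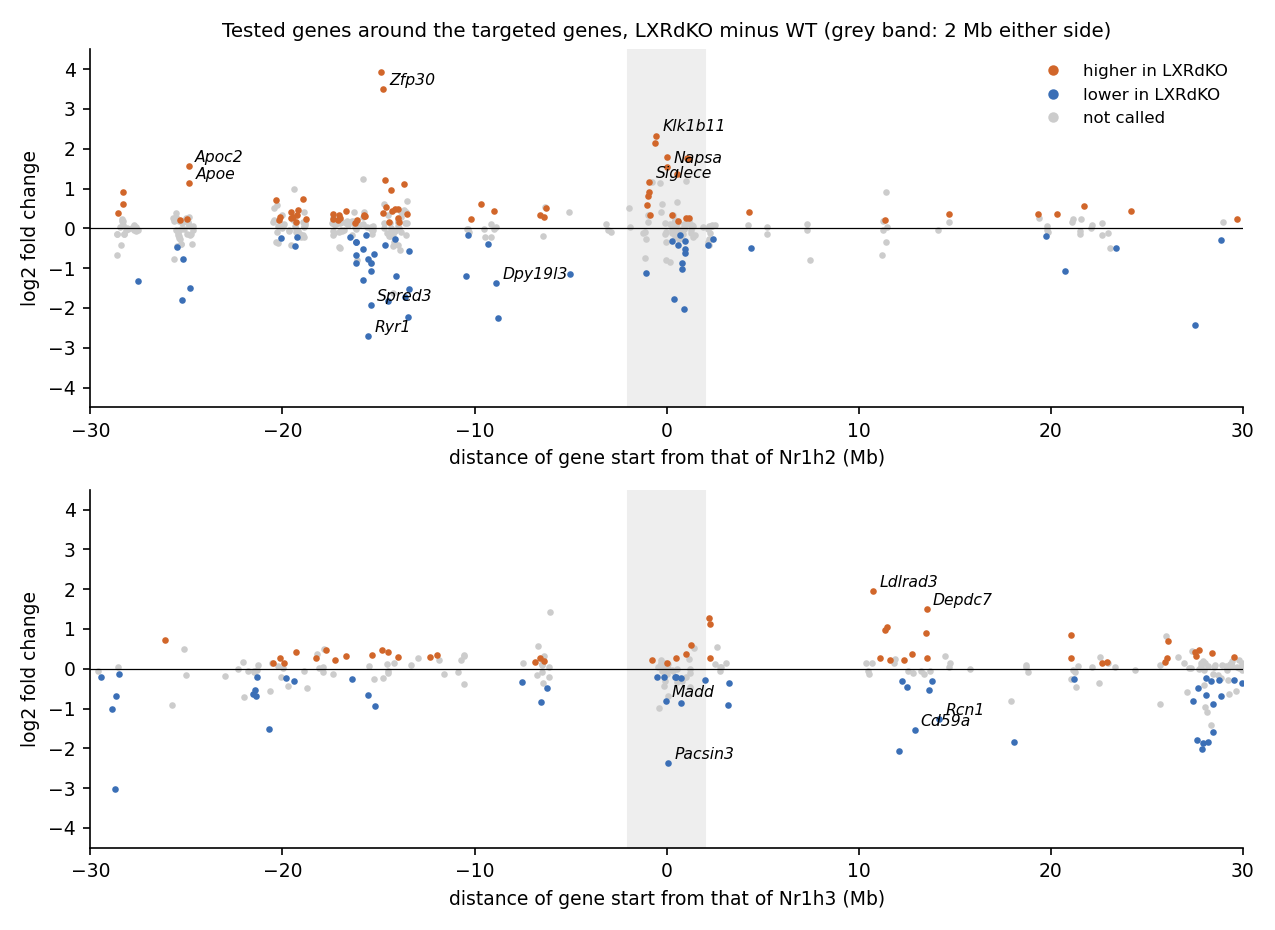
Log2 fold change, LXRdKO minus WT, of tested genes against the distance of their start from that of Nr1h2 (top, 404 genes) or Nr1h3 (bottom, 260 genes) in Mb, out to 30 Mb on either side, with called genes orange (higher) or blue (lower). The targeted genes are left out, 1 gene lies beyond the axis in the top panel, and the grey band marks 2 Mb on either side, where changes of 2-fold or more are dense around Nr1h2 and sparse around Nr1h3.

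The level in LXRdKO was also set against that in Ch25hKO, where 2492 genes were higher in LXRdKO (19.3%) and 2406 lower (18.6%), together 37.9% of those tested. Lower counts came to 1585 without Ch25hKO replicate 1 and 1504 without LXRdKO replicate 2. Of the LXR targets, 10 of 25 were higher in LXRdKO than in Ch25hKO and 11 lower. Abcg1 was at 39.6 and 43.6 CPM in Ch25hKO, below both WT and LXRdKO, and was higher in LXRdKO by 1.69 (edgeR adjusted p = 1.36e-12). Mylip was at 34.3 and 33.9 CPM in Ch25hKO and lower still in LXRdKO, by 0.44. Scd2 was at 174 and 159 CPM in Ch25hKO, above WT, so that the knockouts lay on opposite sides of WT and differed by 3.75 on the log2 scale. Cxcl1 was at 67.6 and 62.4 CPM in Ch25hKO, and LXRdKO was lower by 2.58 (edgeR adjusted p = 7.03e-15). Of the interferon-stimulated genes 47 of 51 were higher in LXRdKO than in Ch25hKO, and 24 of 27 cholesterol synthesis genes were lower. The interferon-stimulated genes summed to 62691 to 68827 CPM in WT, 63219 to 66979 in LXRdKO and 42239 to 45423 in Ch25hKO. The cholesterol synthesis genes summed to 302 to 316 CPM in WT, 364 to 366 in LXRdKO and 2377 to 2388 in Ch25hKO. In both lists the Ch25hKO sums lay farther from WT than the LXRdKO sums. Osm was at 7.98 and 8.74 CPM in Ch25hKO, and its difference from LXRdKO did not pass (0.09, edgeR adjusted p = 0.487).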

How the data were processed

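Gene expression was measured by RNA-seq after amplification of 100 ng of RNA with an Ovation kit, per the labels' protocols. The authors deposited raw counts per gene symbol, 1 column per library. Per the submitters' processing notes, the tools were CASAVA, STAR 2.3.0 and HTSeq and the build mm10; the annotation, counting mode and strand were not stated there. Near-identical copies and overlapping genes (Pira2, Pilrb2, Mid1, G530011O06Rik, Serpina3g, Erdr1, the Hspa1 and Klk1b genes) are therefore uncertain.

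Of 23337 symbols, 12923 passed filterByExpr. edgeR 4.0.16 (R 4.3.3) fitted 1 mean per genotype to all 6 libraries, with TMM scaling and robust quasi-likelihood dispersions (common biological coefficient of variation 4.41%, 3 residual degrees of freedom). Library totals ran from 41650513 to 45872964 counts; amplified reads are not independent molecules, and with 2 libraries per group the spread rests on dispersion shared between genes. On simulated counts for 12923 genes, 88% of 2-fold and 55% of 1.3-fold changes were recovered, with 10 false calls. The simulation gave every gene and group the same dispersion and changed far fewer genes than were called here. Its figures are therefore not error rates of the reported calls. Alternatives were RLE and upper-quartile scaling, DESeq2 1.42.0, limma-voom 3.58.1, no count filter, at least 5 CPM in 2 libraries, only the WT and LXRdKO libraries, omission of each library, and a block for the replicate number.

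The comparison and the 47 gene lists were chosen with earlier results of these data known. Named by rule were the receptor genes, Ch25h, all LXR targets and LPS genes, the 15 largest changes each way (mean of at least 5 CPM, no overlap between groups, no unnamed models), the 5 largest CPM differences each way, per list the 4 genes with the lowest p, and 2-fold neighbours within 5 Mb of either receptor gene. Chosen after their values were seen were Atf4, C1qa, C3ar1, Casp1, Ccl17, Ccr2, Cd14, Cd300lb, Cd59a, Cd80, Cd86, Ciita, Clec4a1, Cxcl11, Cxcl9, Dusp1, Ebi3, Erdr1, Fpr1, G530011O06Rik, Gas6, H2-DMa, H2-DMb1, Hmgcs1, Hspa1b, Il15, Il19, Inhba, Isg15, Lair1, Ly96, Madd, Mki67, Ms4a7, Mx1, Odc1, Pilra, Procr, Pros1, Rxra, Rxrb, Tlr2 and Trib3.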

Additional observations from a re-analysis of the deposited data

How the results depend on the processing

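Under 14 alternatives, 226 of 266 called genes among the 286 followed individually kept their call in every one. Many of the followed genes were picked for a low p, a large change or after their values were seen. Their share of kept calls therefore does not carry over to all calls. Leaving out a library leaves its group with 1, assumed to vary like the others. Without LXRdKO replicate 1 or 2, 1292 or 1314 genes were higher than in WT and 1198 or 1265 lower, and over all single omissions the counts ran from 1292 to 2097 and from 1198 to 2232. Genes at least 2-fold higher numbered 98 in the main analysis, 64 with DESeq2, 34 with at least 5 CPM, which tests fewer genes, and 148 without WT replicate 2 (74 to 148 over the omissions). Those at least 2-fold lower numbered 374, 79 with at least 5 CPM, and 268 to 444 over the omissions. Against Ch25hKO, 1712 to 2930 genes were higher and 1504 to 2828 lower over the omissions, with 1585 lower without Ch25hKO replicate 1 and 1504 without LXRdKO replicate 2. Where not given, the cause was not tested. No scaling moved the median log2 change of all genes past 0.01, and rising genes made up 48.0% to 52.9% of calls over the alternatives. Of 1316 recomputed list counts over 47 lists, 156 moved by more than 1.5 times. At 5 CPM no B cell or T and NK cell marker was left.

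The sources do not say that replicate numbers pair the libraries, and the differences between replicates of WT and LXRdKO correlated at -0.0127 across genes. With the replicate number as a block, 1913 genes were higher and 1843 lower than in WT, 96 and 366 of them at least 2-fold, and 2365 were higher and 2256 lower than in Ch25hKO.

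Log2 changes that turned sign belonged to genes not called. Apoc1 was -0.24 without LXRdKO replicate 2 and -0.11 without WT replicate 2 (up to 0.31 over the omissions), and Cd4 -0.19 without LXRdKO replicate 1 and -0.20 without WT replicate 2 (up to 0.26). Lbp was -0.12 without LXRdKO replicate 1 and -0.28 without WT replicate 1 (up to 0.58), Lck 0.02 without LXRdKO replicate 2 and 0.24 without WT replicate 1, and Xist 0.20 without WT replicate 2. The cause was not tested.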

Other observations

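Transcription factors of macrophage identity and of the immediate early response moved in both directions. Maf, a transcription factor of mature macrophages, rose from 297 and 286 to 398 and 400.2 CPM (0.45 ± 0.05). The AP-1 gene Fosl2 fell from 285 and 267 to 185 and 192 CPM (-0.55 ± 0.05), and Ier3, an early response gene, by 0.68 ± 0.05. Over 29 AP-1, EGR and immediate early genes 11 fell (37.9%) and 7 rose (24.1%), with 6 lower without LXRdKO replicate 1 and 7 lower with DESeq2. The nuclear receptor partner genes Rxra and Rxrb did not pass (-0.01 and 0.13), and the coregulator gene Tbl1xr1 rose by 0.35 ± 0.05.

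Genes of matrix turnover and alternative activation were also mixed. Mmp12, the macrophage elastase, rose from 116 and 122 to 227 and 232 CPM (0.94 ± 0.05), while the protease inhibitor gene Timp1 fell by 0.54 ± 0.06. The haptoglobin-hemoglobin receptor gene Cd163 rose from 1.69 and 1.77 to 3.53 and 3.64 CPM, and the coagulation factor gene F13a1 by 0.67 ± 0.08, while the folate receptor gene Folr2 fell from 51.9 and 47.2 to 29.8 and 26.9 CPM (-0.81 ± 0.07). Pmaip1, a pro-apoptotic BCL-2 family gene, fell from 38.6 and 35.0 to 13.5 and 14.9 CPM (-1.37 ± 0.08). Acp5, an acid phosphatase of osteoclasts and lysosomes, rose from 13.9 and 13.8 to 31.1 and 30.9 CPM (1.16 ± 0.07). Adjusted p-values behind these calls come from edgeR.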
